A study of Mus musculus with 6 samples.

Results

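Interferon-induced genes are the genes that cells switch on when they sense a virus, stray nucleic acid or an interferon signal. A list of 38 such genes was followed across the mammary glands of mice on a high-fat or a control diet, with members taken as every array probe whose RefSeq accession belongs to a listed gene. Of the 38 genes, 36 had such a probe (48 probes, of which 47 were kept because at least 3 arrays read them well above background), out of 23460 genes or unnamed transcripts tested in all. Mx1 and Mx2 matched no probe through the RefSeq table and are not analysed here. All 36 measured genes were well above background on 6 of 6 arrays on the probe used, so none entered through 1 diet alone.

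The study compared diets in female mice that all lacked Trp53, the gene of the tumour suppressor p53. The mice were put on their diet at random at 3 weeks of age, 3 on a high-fat diet (HFD) and 3 on a control diet (CD), and the mammary glands were taken at 8 weeks, after 5 weeks of feeding. The deletion is shared by both groups and no mouse with intact Trp53 was measured, so every difference below is between diets on that background. Each sample gave 1 single-colour array, and the 3 samples of a diet carry separate codes, taken here as separate mice. The 75th percentile of signal ranged from 1326 to 1973 intensity units, and between 27203 and 29412 of 39429 probes per array were well above background. The labels give whole glands as the source but epithelial cells in the sample descriptions. Epithelial markers were measured on every array. Of the 8 adipocyte markers, Fabp4 (0.39 to 2.55) and Pnpla2 (1.75 to 2.34) lay above the 75th percentile on all arrays. The others were low: the hormone gene Adipoq lay at -7.33 to -5.74, and Plin1, Lep, Cidec, Lipe and Retn lay between -6.51 and -4.33. The lowest detected signal of an array lay between -7.87 and -6.83. A level here is the log2 signal relative to the array's 75th percentile, and a difference is the high-fat minus the control mean on that log2 scale (n = 3 mice per diet throughout). A level near 0 is thus a signal close to the 75th percentile of the array.

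In outline, the pathway runs from sensors to factors to effectors. Cytosolic sensors detect foreign or misplaced nucleic acid and trigger the making of interferons, which act through surface receptors and JAK kinases on STAT and IRF transcription factors. Type I interferons mainly activate a complex that includes STAT2 and IRF9 and binds the interferon-stimulated response element (ISRE), and interferon gamma acts mainly through the gamma-activated site (GAS). The genes induced this way encode antiviral effectors, more copies of the sensors and factors themselves, and GTPases that attack intracellular pathogens. In the mammary gland such genes can be expressed by epithelial, stromal and immune cells alike.

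The promoters of several members carry the element through which interferon acts, and the windows below show it in genes from the effector, factor and GTPase groups, with a GAS for comparison. RefSeq promoter windows (GRCm38.p6) were found for 28 of the 38 listed genes and were searched over the 250 bases before the start. The ISRE core was searched on both strands as the letters GAAA, any 2 bases and GAAA again, where matches may overlap each other. It was present in 12 of 28 members (42.9%) and in 3.46% of all 27025 genes with a window. The GAS, searched as TTCNNNGAA, was present in 6 of 28 members (21.4%) and in 8.13% of all genes. Capitals mark every match of the named motif in the window, written 5′ to 3′ along the gene's strand. The first lines are ISRE windows of Ifit3 (chr19:34583353-34583436, plus strand), Ifit1 (chr19:34640765-34640833, plus), Rsad2 (chr12:26456543-26456592, minus), Isg15 (chr4:156200855-156200916, minus), Stat2 (chr10:128270256-128270305, plus), Igtp (chr11:58199502-58199551, plus) and Gbp2 (chr3:142620584-142620633, plus). The last line is the GAS window of Irf1 (chr11:53769904-53769952, plus).
Ifit3: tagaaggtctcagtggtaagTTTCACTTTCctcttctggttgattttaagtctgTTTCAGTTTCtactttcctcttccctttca
Ifit1: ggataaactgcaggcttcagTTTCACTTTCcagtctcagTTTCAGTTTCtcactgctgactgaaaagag
Rsad2: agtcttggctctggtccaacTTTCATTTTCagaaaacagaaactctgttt
Isg15: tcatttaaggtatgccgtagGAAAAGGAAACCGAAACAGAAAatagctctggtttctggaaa
Stat2: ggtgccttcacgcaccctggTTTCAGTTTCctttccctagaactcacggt
Igtp: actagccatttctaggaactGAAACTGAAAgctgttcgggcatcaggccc
Gbp2: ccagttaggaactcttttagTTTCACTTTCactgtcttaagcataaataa
Irf1: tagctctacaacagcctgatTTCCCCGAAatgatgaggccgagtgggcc

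In Ifit3 the ISRE matches began 156 and 122 bases before the start, and in Ifit1 104 and 85 bases before it. Isg15 held 3 overlapping matches, the first 78 bases before the start. The windows were chosen after the values were seen, and a match is a description of the letters, not of a bound site. Among measured members, the 12 with an ISRE match had a median log2 difference between diets of -1.12 (from -2.19 to -0.48), and the 16 without one had a median of -0.68 (from -1.55 to -0.27). The split by GAS ran the other way, with a median of -0.64 for the 6 with a match (from -1.28 to -0.36) and -0.98 for the 22 without (from -2.19 to -0.27). The ranges overlap broadly in both splits. Oasl1 (-1.55), Irf7 (-1.0) and Ifih1 (-1.03) had no ISRE match in the window.

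The comparison of the diets asked whether interferon-induced genes differ after 5 weeks of high-fat feeding. All 36 genes had lower mean levels on the high-fat than on the control arrays, with a median log2 difference of -0.96, from -2.19 for Ifit3 to -0.27 for Ifi35. Over all genes tested the median was -0.01, and 51.0% had a negative difference. In limma 0 of the 36 passed an adjusted p of 0.05, against 0.0171% of all genes (4 genes, all lower after the high-fat diet), and the members' adjusted p ran from 0.231 to 0.539. At an unadjusted p under 0.05, 20 of 36 (55.6%) had lower and 0 higher values, where 7.46% of all genes were lower and 5.88% higher. Since the genes vary together from array to array, these are not 36 separate observations. Slide and diet were largely confounded, and with slide as a block the difference comes only from the slide that held both diets. In that fit 2 of the 36 had an unadjusted p under 0.05, where 1232 of all 23460 genes did in either direction. This bears equally on the counts by role below. Leaving out control replicate 2 put the 20 at 9 and leaving out high-fat replicate 3 put it at 34.

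On the probe used for each gene, the lowest places went to the same arrays in every member, while the highest array varied. High-fat replicate 2 was the lowest of the 6 arrays in 36 of 36 genes, which held for 17.6% of all genes, and high-fat replicate 1 was the second lowest in 36 of 36; this pair held the lowest places in 15.4% of all genes. High-fat replicate 3 stood elsewhere: in 19 of 36 members it lay above at least 1 control array (73.5% of all genes), and in 2, Irgm1 and Ifi35, it lay above all 3 (20.6% of all genes). In the remaining 17 (47.2%) all high-fat arrays lay below all control arrays, where 8.75% of all genes did, and in 0 did they lie wholly above, where 8.47% did. A difference of -1 or lower on the log2 scale was seen in 17 of 36 members and in 3.21% of all genes. The mean level of the 36 genes was 1.42, 0.82 and 2.21 on high-fat replicates 1 to 3 and 2.33, 2.46 and 2.55 on control replicates 1 to 3. The mean ± SD of these values was 1.48 ± 0.69 for the high-fat mice and 2.44 ± 0.11 for the control mice (n = 3 each), so the high-fat mice differed far more among themselves than the control mice did.

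**Figure D1:**
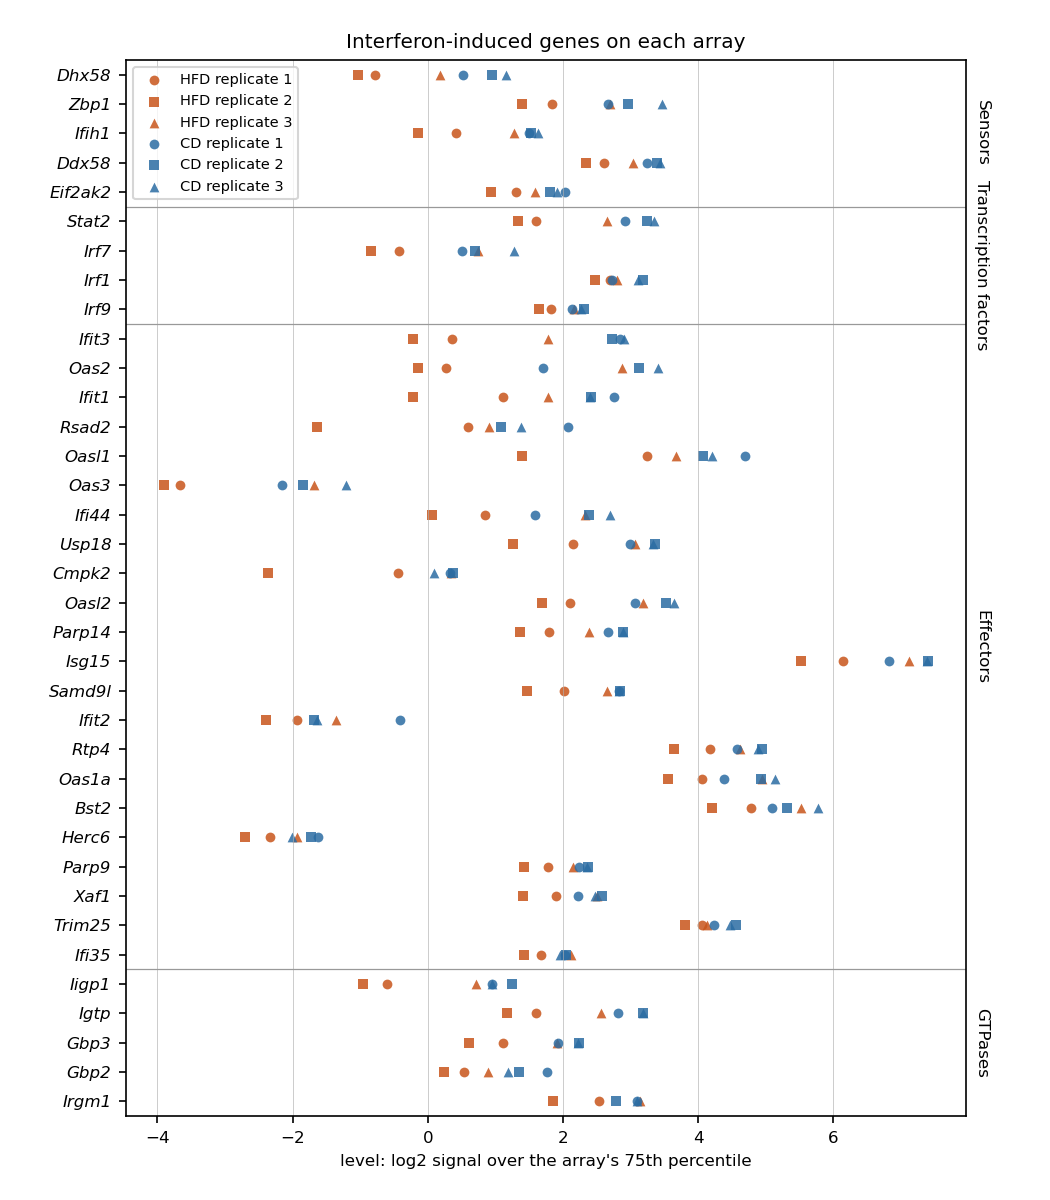
Level of each measured interferon-induced gene (rows, grouped by role and ordered by difference) on each of the 6 arrays. The horizontal axis is the log2 signal over the array's 75th percentile, colours are diets and symbols are replicates. High-fat replicates 2 and 1 (orange squares and circles) are the lowest points in all 36 rows, while high-fat replicate 3 (orange triangles) lies close to or among the control arrays in most rows.

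The sensors recognise nucleic acid in the cytosol. Ifih1 (MDA5) and Ddx58 (RIG-I) are RNA helicases that signal through MAVS, and Dhx58 (LGP2) is their relative that tunes the signal. Zbp1 senses Z-form nucleic acid and Eif2ak2 (PKR) is a kinase that stops translation on double-stranded RNA. The 5 sensors were all lower under high-fat feeding on average (median difference -1.03), and 5 of 5 had an unadjusted p under 0.05 with adjusted p from 0.251 to 0.343.

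For Dhx58 (NM_030150) the levels were -0.78, -1.03 and 0.18 on high-fat replicates 1 to 3 and 0.52, 0.95 and 1.16 on control replicates 1 to 3. All high-fat arrays were below all control arrays, and the control diet was 2.67-fold higher (log2 difference -1.42, SE 0.35, adjusted p = 0.251). Ifih1 (NM_027835) had 0.42, -0.14 and 1.28 against 1.5, 1.53 and 1.63. Its control arrays lay within 0.13 of each other and its high-fat arrays spread over 1.42, with a difference of -1.03 (SE 0.35, adjusted p = 0.332). Ddx58 (NM_172689) had 2.61, 2.34 and 3.03 against 3.24, 3.39 and 3.43, a difference of -0.69 (SE 0.20, adjusted p = 0.291). On this probe too the diets did not overlap, with high-fat replicate 3 the nearest to the control arrays.

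Zbp1 (NM_001139519) had 1.84, 1.40 and 2.69 under high-fat and 2.67, 2.96 and 3.46 under control diet (difference -1.05, SE 0.37, adjusted p = 0.343). On the probe used it was the sensor whose diets overlapped, since high-fat replicate 3 exceeded control replicate 1. Eif2ak2 (NM_011163) had 1.31, 0.93 and 1.58 against 2.03, 1.81 and 1.92, a difference of -0.65 (SE 0.19, adjusted p = 0.299), with no overlap. The second probes of Ifih1, Ddx58 and Zbp1 differed by -0.63, -0.68 and -1.23, in the same direction. The overlap was not the same on them. On the second probes of Ifih1 and Ddx58 high-fat replicate 3 (-4.46 and -1.44) lay above control replicate 2 (-4.89 and -1.45). On that of Zbp1 the diets did not overlap.

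The 4 transcription factors carry the signal to the promoters. STAT2 and IRF9 are parts of the complex that binds the ISRE, IRF7 drives the production of type I interferons, and IRF1 acts downstream of interferon gamma and inflammatory signals. All 4 had negative differences (median -0.68), and 1 of 4, Stat2, had an unadjusted p under 0.05.

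Stat2 (NM_019963) had levels of 1.60, 1.33 and 2.65 on high-fat replicates 1 to 3 and 2.92, 3.25 and 3.35 on control replicates 1 to 3. It was the factor with no overlap between diets, and the difference was -1.31 (SE 0.35, adjusted p = 0.275), a 2.48-fold higher control mean. Irf7 (NM_016850) had -0.42, -0.84 and 0.74 against 0.51, 0.70 and 1.28 (difference -1.0, SE 0.43, adjusted p = 0.379). High-fat replicate 3 lay inside its control range.

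Irf9 (NM_001159417) and Irf1 (NM_008390) differed less. Irf9 had 1.82, 1.65 and 2.17 under high-fat and 2.13, 2.31 and 2.27 under control diet, a difference of -0.36 (SE 0.17, adjusted p = 0.395). Irf1 had 2.69, 2.48 and 2.80 against 2.73, 3.19 and 3.11, also a difference of -0.36 (SE 0.17, adjusted p = 0.400). Irf1 was 1 of the few members in which the high-fat arrays did not spread more than the control arrays (SD 0.16 against 0.24, n = 3 each). In Irf1 and Irf9 high-fat replicate 3 lay above the lowest control array.

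The 22 measured effectors act on viral RNA, proteins and membranes. Their median difference was -0.96 (from -2.19 to -0.27). All 22 were negative, 10 had an unadjusted p under 0.05, and in 8 the diets did not overlap. The IFIT proteins bind viral RNA ends and block its translation, the OAS enzymes make the messenger that activates RNase L, and viperin (Rsad2) makes a chain-terminating nucleotide from CTP.

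Ifit3 (NM_010501) had the largest difference of the 36. Its levels were 0.36, -0.22 and 1.78 on high-fat replicates 1 to 3 and 2.84, 2.73 and 2.91 on control replicates 1 to 3, a 4.55-fold higher control mean (difference -2.19, SE 0.49, adjusted p = 0.231). The control arrays agreed within 0.17 and the high-fat arrays spread over 2.00. Without high-fat replicate 3 it was the only member past the test in limma (difference -2.76, adjusted p = 0.042), where 0.158% of all genes passed as lower. Ifit1 (NM_008331) had 1.12, -0.22 and 1.78 against 2.76, 2.41 and 2.40, a difference of -1.63 (SE 0.49, adjusted p = 0.309). All high-fat arrays of both genes lay below all control arrays.

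Among the OAS genes, Oas2 (NM_145227) had the widest spread of all members. It had 0.27, -0.15 and 2.88 under high-fat and 1.71, 3.12 and 3.41 under control diet (difference -1.75, SE 0.87, adjusted p = 0.411). High-fat replicate 3 exceeded control replicate 1, so the diets overlapped, and the high-fat range of 3.03 was larger than the difference. Oas3 (NM_145226) had the same layout, with -3.66, -3.90 and -1.69 against -2.15, -1.84 and -1.21 (difference -1.35, SE 0.61, adjusted p = 0.386). Oasl1 (NM_145209), an OAS-like protein without the enzyme's activity that restrains translation of Irf7, had 3.25, 1.40 and 3.67 against 4.70, 4.07 and 4.21. Its diets did not overlap (difference -1.55, SE 0.59, adjusted p = 0.358), and high-fat replicate 2 stood apart from the other high-fat arrays.

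Rsad2 (NM_021384) and its genomic neighbour Cmpk2 (NM_020557), a mitochondrial nucleotide kinase, had by far their lowest value on high-fat replicate 2. Rsad2 had 0.59, -1.64 and 0.91 under high-fat and 2.08, 1.09 and 1.38 under control diet (difference -1.56, SE 0.69, adjusted p = 0.383), and its diets did not overlap. Cmpk2 had -0.44, -2.37 and 0.34 against 0.33, 0.37 and 0.09 (difference -1.08, SE 0.65, adjusted p = 0.475), and high-fat replicate 3 lay inside its control range. Without high-fat replicate 2 their differences were -0.77 and -0.31. Ifi44 (NM_133871), a cytoplasmic antiviral protein, had 0.85, 0.06 and 2.33 against 1.58, 2.38 and 2.70 (difference -1.14, SE 0.60, adjusted p = 0.430), with high-fat replicate 3 inside the control range.

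The smallest differences among the effectors were those of Ifi35, Trim25, Xaf1 and Parp9. Ifi35 (NM_027320) had 1.68, 1.43 and 2.12 under high-fat and 2.03, 2.04 and 1.95 under control diet (difference -0.27, SE 0.19, adjusted p = 0.539), with high-fat replicate 3 the highest of the 6. Trim25 (NM_009546), the ubiquitin ligase that activates RIG-I, had 4.06, 3.80 and 4.13 against 4.23, 4.56 and 4.47. Its difference was small (-0.43, SE 0.15, adjusted p = 0.347), but its diets did not overlap. Xaf1 (NM_001037713), a pro-apoptotic protein, differed by -0.49 (SE 0.29, adjusted p = 0.465). Parp9 (NM_030253), an ADP-ribosyltransferase of the DNA damage and interferon responses, differed by -0.53 (SE 0.20, adjusted p = 0.355), with 1.78, 1.43 and 2.15 against 2.24, 2.37 and 2.36 and no overlap.

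The other 10 effectors differed by -1.08 to -0.54 (SE 0.22 to 0.44). They include Isg15, the ubiquitin-like modifier, with Usp18, the protease that removes it, and Herc6, the ligase that attaches it in mice. Of the 10, 5 had an unadjusted p under 0.05, and in 2 the diets did not overlap, Parp14 and Samd9l. Isg15 (NM_015783) had 6.15, 5.52 and 7.12 under high-fat and 6.82, 7.40 and 7.39 under control diet (difference -0.95, SE 0.41, adjusted p = 0.382), with a difference of -0.92 on its second probe. Samd9l (NM_010156), a translation inhibitor, had control levels of 2.83, 2.85 and 2.83, which lay within 0.02 of each other, and high-fat levels of 2.01, 1.47 and 2.66.

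The immunity-related and guanylate-binding GTPases attack the membranes of vacuoles that hold pathogens, and most respond strongly to interferon gamma. The 5 measured here had a median difference of -0.92, 5 of 5 negative, 4 with an unadjusted p under 0.05 and 4 with diets that did not overlap. Their adjusted p ran from 0.264 to 0.514.

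Iigp1 (NM_001146275) had -0.61, -0.96 and 0.71 on high-fat replicates 1 to 3 and 0.95, 1.24 and 0.95 on control replicates 1 to 3 (difference -1.33, SE 0.43, adjusted p = 0.320). Igtp (NM_018738) had 1.60, 1.18 and 2.56 against 2.81, 3.18 and 3.19, a difference of -1.28 (SE 0.35, adjusted p = 0.283). In both genes high-fat replicate 3 lay nearer to the control arrays than to the other high-fat arrays, yet below them. On the second probe of Iigp1 high-fat replicate 3 (-0.85) lay above control replicates 2 and 3 (-0.92 and -1.18). Gbp3 (NM_018734) had 1.12, 0.61 and 1.91 against 1.93, 2.24 and 2.23 (difference -0.92, SE 0.33, adjusted p = 0.348).

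Gbp2 (NM_010260) had 0.53, 0.24 and 0.89 under high-fat and 1.77, 1.35 and 1.19 under control diet (difference -0.89, SE 0.23, adjusted p = 0.264). It differed in layout from the other GTPases, because its high-fat arrays spread no more than about its control arrays (SD 0.33 against 0.30, n = 3 each). Irgm1 (NM_008326), a regulator of the other GTPases of its family, had 2.53, 1.86 and 3.14 against 3.09, 2.78 and 3.10. Its difference was -0.48 (SE 0.32, adjusted p = 0.514), high-fat replicate 3 was the highest array, and its second probe differed by -0.14.

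**Figure D2:**
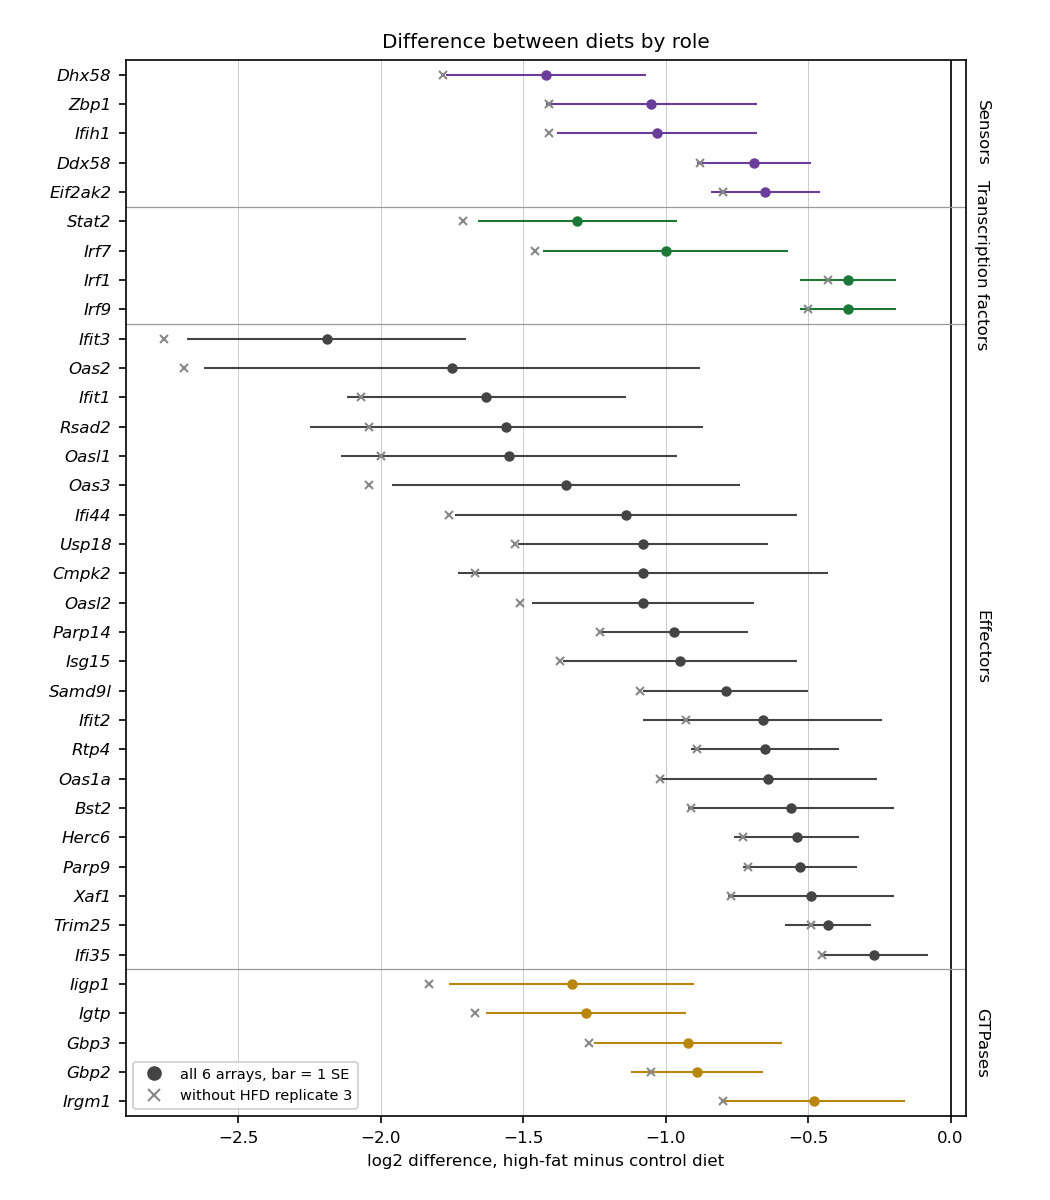
Log2 difference between diets (high-fat minus control, horizontal axis) for each measured gene, grouped by role, with bars of 1 SE from limma. Grey crosses give the difference without high-fat replicate 3. All 36 points lie left of 0. That replicate is the highest of the high-fat arrays in all 36 genes, so leaving it out necessarily moves every point further left.

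Set side by side, sensors (median -1.03), effectors (-0.96) and GTPases (-0.92) had closely similar medians, and the factors the smallest (-0.68). No test of the difference between roles was made. On the probe used, the share with no overlap between diets was 4 of 5 sensors, 4 of 5 GTPases, 8 of 22 effectors and 1 of 4 factors. Second probes changed this in both directions: the diets overlapped in Ifih1, Ddx58 and Iigp1, and did not in Zbp1 and Herc6. High-fat replicate 3 lay above the lowest control array in 1 of 5 sensors, 1 of 5 GTPases, 14 of 22 effectors and 3 of 4 factors. With the probes of a gene averaged in place of the brightest, the sensors' median was -0.83. With slide as a block the medians lay further apart and in another order. They were -0.94 for GTPases, -0.77 for sensors, -0.64 for effectors and -0.39 for factors.

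The spread within a diet is another view of the array order above, not a separate feature. Here too the 36 genes are not separate observations. In 33 of 36 the SD between the high-fat arrays was larger than that between the control arrays, where 50.1% of all genes had this order. The median SD was 0.66 among high-fat and 0.21 among control arrays, beside 0.20 and 0.21 over all genes. The control arrays thus spread as much in these genes as in genes at large, and the high-fat arrays spread more. By role the median high-fat SD was 0.64 for sensors, 0.48 for factors, 0.73 for effectors and 0.66 for GTPases, against 0.11, 0.23, 0.21 and 0.18 under control diet. In Oas2, Cmpk2 and Rsad2, the members with the largest high-fat SD (1.64, 1.40 and 1.38), the range of the high-fat arrays exceeded the difference between diets, as it did in 30 of 36 members and in 17589 of 23460 genes tested.

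**Figure D3:**
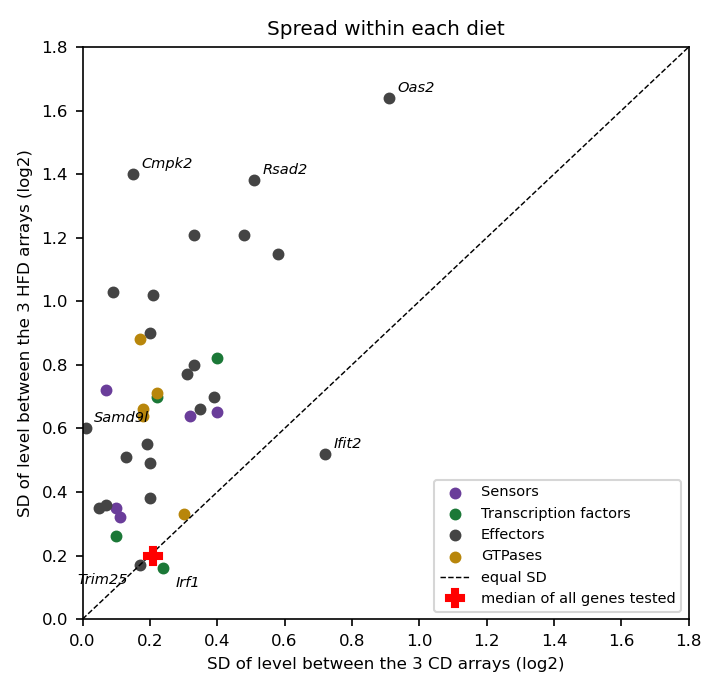
SD between the 3 high-fat arrays (vertical axis) against the SD between the 3 control arrays (horizontal axis) for each of the 36 genes, in log2 units and coloured by role. The dashed line marks equal SDs and the red cross the medians over all genes tested (0.21 and 0.20). Most points lie above the line; Oas2 has the largest high-fat SD (1.64), and Ifit2, Irf1 and Trim25 lie on or below the line.

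How far the high-fat group stands from the control group rests on which of its arrays are taken. High-fat replicates 1 and 2 lay below the control mean by a median of -1.32, and high-fat replicate 3 by a median of -0.20. Without high-fat replicate 3 the median difference of the 36 was that same quantity, -1.32. In that fit 34 of 36 had an unadjusted p under 0.05 as lower, where 10.9% of all genes did. Without high-fat replicate 2 the median was -0.62, with all 36 still negative. The arrays lay on 3 slides, of which 1 held both diets, with high-fat replicates 2 and 3 and control replicate 1. Within it the median difference of the 36 was -0.66 and all were negative. There high-fat replicate 2 was below control replicate 1 in 36 of 36 genes (median -1.36), where 44.4% of all genes were, and high-fat replicate 3 in 19 of 36 (median -0.05), where 46.3% were.

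Markers of other cell types moved with this array order in part. The fibroblast list (8 of 8 markers measured, 7 with lower values under high-fat) had mean levels of 3.29, 3.30 and 4.45 on high-fat replicates 1 to 3 and 4.32, 4.78 and 5.00 on control replicates 1 to 3. Its summed level ranged from 175.0 to 447.0 under high-fat and from 394.0 to 660.0 under control diet, in multiples of the array's 75th percentile signal. The epithelial list (10 of 10 measured, 10 with higher values under high-fat) ran the other way, with means of 3.40, 3.52 and 2.67 against 2.46, 2.38 and 1.96 and sums of 358.0 to 577.0 against 236.0 to 365.0. On the means of these lists high-fat replicate 3 thus lay next to the control arrays, as it did in the interferon-induced genes. By single marker, all high-fat arrays lay above all control arrays in 4 of 10 epithelial markers (8.47% of all genes). Krt5 was among them, at 6.16 on high-fat replicate 3. All high-fat arrays lay below all control arrays in 3 of 8 fibroblast markers, Dcn, Lum and Pdgfra (8.75% of all genes). The part of these shifts in the result was not tested, and in bulk RNA fewer cells of a type and less RNA per cell cannot be told apart.

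Leukocyte lists did not follow that order as a whole, though the T and NK cell mean was also lowest on high-fat replicate 2. The T and NK cell list had means of -2.04, -2.18 and -1.99 against -2.13, -2.00 and -1.53 and sums of 5.02 to 5.83 against 4.77 to 5.81. Of its 12 markers, Cd3d, Cd3g, Cd8a, Cd2, Klrd1 and Ncr1 were well above background on at most 1 array of any probe. The macrophage and monocyte list summed to 10.3 to 15.8 under high-fat and 13.2 to 14.4 under control diet (9 of 12 measured), the dendritic list to 61.1 to 68.3 against 60.3 to 88.7 (6 of 9), and the B cell and lymph node list to 0.289 to 0.325 against 0.242 to 0.329 (7 of 11). The macrophage and monocyte sum came almost wholly from Cd14, Itgam and Csf1r, while Adgre1, Mrc1, Fcgr1, Mertk, C1qa and C1qb lay between -7.19 and -3.57. The dendritic sum came almost wholly from Siglech, at levels of 5.91 to 6.46, while Xcr1, Clec9a and Cd209a were well above background on 0 arrays. Endothelial (9.44 to 13.2 against 9.91 to 13.9) and adipocyte sums (6.07 to 11.1 against 6.59 to 8.11, almost wholly from Fabp4 and Pnpla2) overlapped between diets. Skeletal muscle sums did not, at 2.68 to 4.21 against 4.65 to 7.13. They came mostly from Acta1, which differed by 0.01, and Tnnc2, which differed by -2.4. On the sum high-fat replicate 3 (4.21) lay between high-fat replicate 1 (3.99) and control replicate 3 (4.65). In Tnnc2 it lay at -1.01, with the other high-fat arrays at -1.03 and -1.4.

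**Figure D4:**
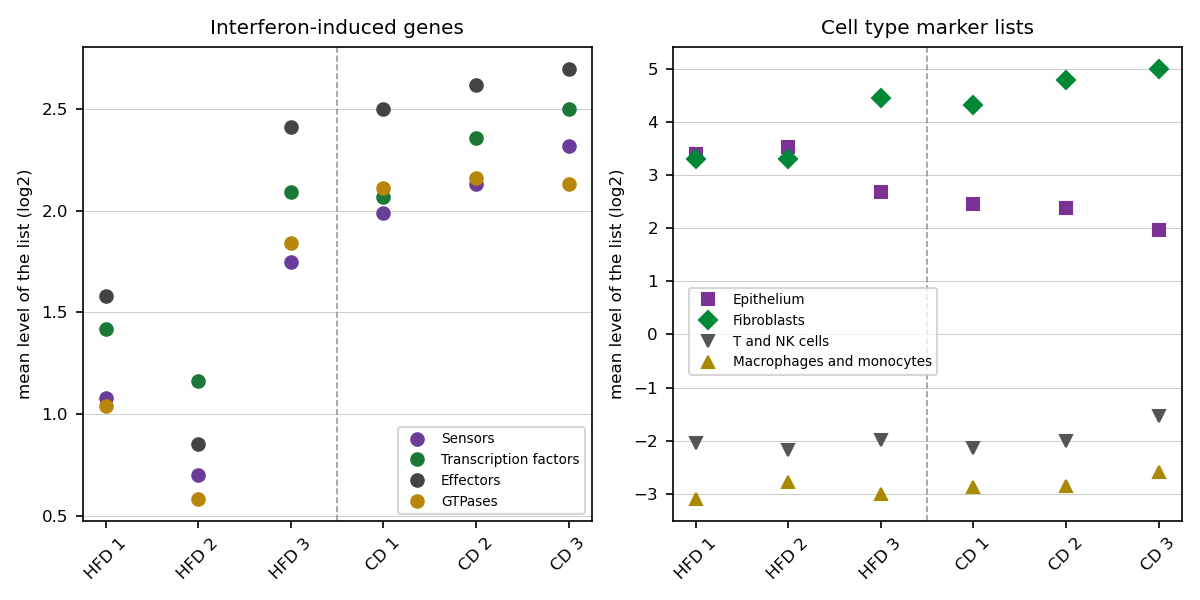
Mean level (vertical axis, log2 signal over the array's 75th percentile) on each array (horizontal axis) of the 4 role groups of interferon-induced genes (left) and of 4 cell type marker lists (right); the dashed line separates the diets. All 4 role groups are lowest on high-fat replicate 2 and next lowest on high-fat replicate 1, and the fibroblast list is low on the same arrays. The T and NK cell list is also lowest on high-fat replicate 2 (-2.18) but next lowest on control replicate 1 (-2.13), and the macrophage list is lowest on high-fat replicate 1.

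Genes upstream of the set were taken from 4 lists with 44 genes, of which 39 were measured. None passed an adjusted p of 0.05 in limma in either direction, and the median difference was -0.20. At an unadjusted p under 0.05, 4 of the 39 had lower and 0 higher values, where 7.46% of all genes were lower and 5.88% higher. Several interferon genes were dim. Ifng, Ifna4, Ifnk and Ifne were well above background on 0 arrays, and Ifnb1, the main type I interferon of non-immune cells, was detected on all 6 at low signal. Ifnb1 (NM_010510) had levels of -5.68, -5.94 and -4.75 on high-fat replicates 1 to 3 and -4.38, -4.64 and -4.62 on control replicates 1 to 3, with high-fat replicates 2 and 1 lowest as in the members and control replicate 1 highest (difference -0.91, SE 0.31, adjusted p = 0.339). With a normexp background correction its difference was 0.01. Ifna11 differed by -0.57 (SE 0.19, adjusted p = 0.331) close to the lowest detected signal, and by 0.48 with normexp, where the median of all genes was 0.21. The other 5 interferon genes measured differed by 0.11 to 0.25.

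The median difference of the 9 receptor and kinase genes was -0.27, all were below 0, and 0 of 9 had an unadjusted p under 0.05. Among those with the smallest p, Ifngr1, the ligand-binding chain of the interferon gamma receptor, differed by -0.43 (SE 0.20), the kinase Jak1 by -0.32 (SE 0.15) and Jak2 by -0.48 (SE 0.27), with adjusted p from 0.394 to 0.451. Of the 14 upstream sensing genes, Sting1, the adaptor of cytosolic DNA sensing, had an unadjusted p under 0.05 (difference -0.90, SE 0.33, adjusted p = 0.352). It had 2.39, 2.77 and 3.30 under high-fat and 3.18, 3.82 and 4.17 under control diet, so high-fat replicate 3 exceeded 1 control array. Of the 9 further factors and feedback genes, Socs1, the inhibitor of JAK kinases that interferon itself induces, had the smallest p. Socs1 had 0.20, 0.19 and 0.20 against 0.73, 0.87 and 0.68 (difference -0.56, SE 0.11, adjusted p = 0.214). Unlike the members, its 3 high-fat arrays agreed within 0.02, with high-fat replicate 3 as low as the others.

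**Figure D5:**
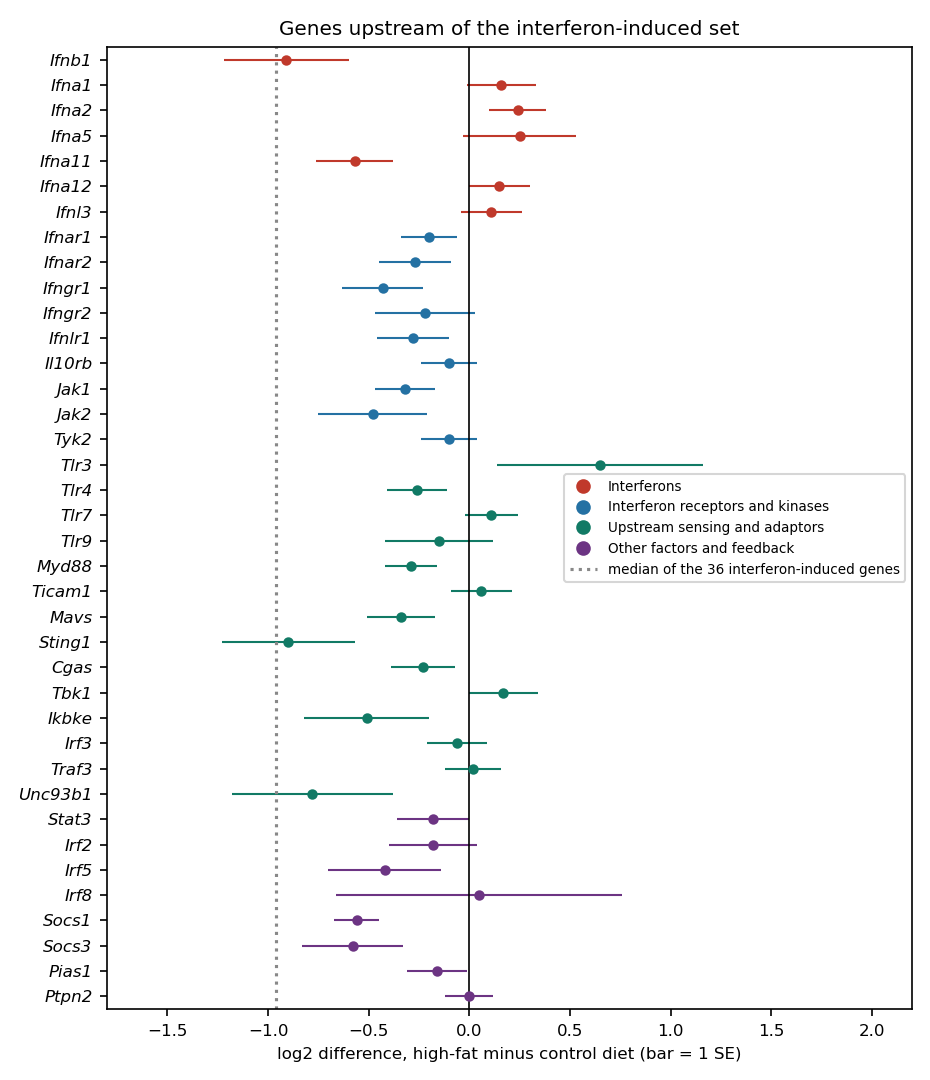
Log2 difference between diets (horizontal axis, bars of 1 SE from limma) for the measured genes upstream of the interferon-induced set, coloured by list, with 1 measured gene not plotted; the dotted line is the median of the 36 interferon-induced genes (-0.96). Receptor and kinase genes all lie between -0.48 and -0.10, and of the genes plotted Ifnb1 and Sting1 lie closest to the dotted line.

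Probes of 1 gene gave like mean differences where several were measured, but the order of the arrays could differ. On the second probe of Cmpk2 control replicate 1 (-2.08) lay below high-fat replicate 1 (-1.27). On that of Irgm1 high-fat replicate 1 (0.06) lay above control replicates 2 and 3 (-0.06 and -0.12). High-fat replicate 1 was thus not second lowest on either of these probes. Of the 11 members with 2 kept probes, the probes had the same sign in 11, the median gap between their differences was 0.13 and the largest was 0.40, in Ifih1. Several members have near-identical relatives, such as Ifit3 with Ifit3b and Oas1a with its Oas1 paralogs, and how far a probe also reads the relative is not analysed here.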

How the data were processed

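RNA of 6 mammary gland samples was read on single-colour (Cy3) Agilent arrays with Agilent Feature Extraction 11.0.1.1, per the submitters' processing notes. The deposited scanner files give intensity on a linear scale, and the processed signal was used; how it was corrected for background is not given in the sources used here. The deposited value table holds the same intensity divided by a number close to each array's 75th percentile (99.9% of values within 1%).

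Control and outlier spots were left out, spots of 1 probe averaged, and log2 signals taken relative to the array's 75th percentile. A probe was kept where at least 3 arrays read it well above background (28689 of 39429). A gene with several probes was read from its brightest on average. RefSeq accessions named 27427 probes. The test was limma's moderated test (version 3.58.1, run in R 4.3.3), two-sided and with no covariates; eBayes p-values from the lmFit model were adjusted by the Benjamini-Hochberg method across 23460 genes at a threshold of 0.05. An exact permutation test of 3 against 3 mice cannot go below p = 0.1. The procedure was tested on simulated data. Members and lists were chosen with earlier results of these data known.

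Members given singly by rule were all sensors, factors and GTPases, and the 8 effectors with the largest and 4 with the smallest difference. Pathway genes given singly were those at an unadjusted p under 0.05 or the 3 with the smallest p of a list. Array levels are not given for Xaf1, Ifna11, Ifngr1, Jak1 and Jak2. Isg15, Samd9l, the members above all control arrays and the motif windows were chosen after the values were seen. Lists were described without set tests. The values of 1 gene of the pathway lists are not reported here. Alternatives covered scaling, background, filter, floor, probe rule, the value table, slide and replicate blocks, variance settings, array weights and leaving out arrays.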

Additional observations from a re-analysis of the deposited data

How the results depend on the processing

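All measured members kept a negative difference in each of 19 alternatives (683 of 683 values). Many of these values repeat each other. The replicate block and the variance settings cannot change a difference, and the filter and floor alternatives left the members' differences as they were. The slide block and the shared slide give the same difference. The members' median lay between -1.32 (without high-fat replicate 3) and -0.62 (without high-fat replicate 2). With array weights, which put control replicate 3 at 4.69 and control replicate 1 at 0.339, 30 members and 11 pathway genes passed, 5408 genes passed in all (12.1% of all genes as lower), and the factors' median was -1.06. The cause was not tested. The main count of 4 genes past the test became 2 with median scaling and 7 with detection on all 6 arrays. It became 0 with quantile normalization, normexp, no filter, slide as a block, the replicate block and within the shared slide (an alternative added after seeing the data), and 0 to 37 leaving out each array. At an unadjusted p under 0.05 the counts were 3129 genes, 20 members and 4 pathway genes. Members past the test numbered 0 to 1 leaving out each array. Their count at an unadjusted p under 0.05 was 10, 12 and 34 without high-fat replicates 1 to 3. It was 14, 9 and 11 without control replicates 1 to 3, and 2 with slide as a block. Over all 23460 genes the count was 1694 and 2073 without high-fat replicates 1 and 2, and 1232 with slide as a block. Without high-fat replicate 3, 10.9% of all genes were lower at that p. The counts over all genes without a control replicate are not given here. With normexp, Ifnb1 (0.01) and Ifna11 (0.48) turned positive. The labels state no pairing of the mice. Correlations of deviations were 0.33, -0.14 and 0.25 between arrays of the same replicate number, and -0.38 to 0.23 between different numbers. With 3 arrays per diet they cannot settle whether the numbers pair mice. The replicate block called 0 members, with 24 at an unadjusted p under 0.05, where 4044 of all 23460 genes were. Cmpk2 is not in the value table. Counting Mx1 and Mx2 as GTPases was not run, since neither was measured. Signal over background limits Ifna11, which lies near the lowest detected signal.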

Other observations

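Relatives of the members outside the list were gathered by gene symbol, after the members' values were seen. All 5 further immunity-related GTPases had negative differences (median -1.66), 3 of them at an unadjusted p under 0.05, and in 5 of 5 high-fat replicate 2 was the lowest array, where 17.6% of all genes had that array lowest. That array was lowest in 3 of 7 Gbp, 4 of 8 Ifi200, 4 of 5 Oas, 1 of 3 Ifit, 2 of 3 Ifi27 and 4 of 11 Parp relatives. Ifi47 had levels of 0.33, -0.05 and 1.97 on high-fat replicates 1 to 3 and 2.08, 2.60 and 2.54 on control replicates 1 to 3, a difference of -1.66 (SE 0.52, adjusted p = 0.319 in limma). Irgm2 differed by -1.43 (SE 0.37, adjusted p = 0.264). All 7 further guanylate-binding proteins had negative differences too (median -1.24, 4 at an unadjusted p under 0.05). Gbp6 differed by -1.59 (SE 0.34, adjusted p = 0.224) with no overlap between diets. Gbp2b among them was well above background on only 1 high-fat and 2 control arrays.

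Of the 8 measured genes of the Ifi200 family of DNA-binding proteins, 7 had negative differences (median -0.82). The largest, of Ifi213 (-1.64) and Ifi214 (-1.74), came from probes well above background on 3 control arrays but 1 high-fat array, so both were kept through the diet in which they were higher. Ifi204, a sensor of DNA, had 4.15, 4.22 and 4.94 under high-fat and 5.16, 5.38 and 5.54 under control diet, a difference of -0.92 (SE 0.24, adjusted p = 0.268), and its diets did not overlap. Ifit3b, the close relative of Ifit3, differed by -1.97 (SE 0.43, adjusted p = 0.227). Other relatives stood apart from this direction. Ifi27 differed by 0.37 (SE 0.31), Ifi27l2b by 0.67 (SE 0.43) and Oas1d by 0.22 (SE 0.14). Parp2, a DNA repair enzyme, differed by 0.39 (SE 0.14). The other Ifi27 relative measured, Ifi27l2a, was lower under high-fat, by -1.98 (SE 0.85), and its diets overlapped. Among 11 further genes with a Parp symbol, 6 lay below 0, and the median was -0.15. None of these relatives passed an adjusted p of 0.05.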
